A study of Mus musculus with 12 samples.

Results

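The acrosome is a vesicle derived from the Golgi apparatus that spreads over the sperm nucleus and holds the enzymes and binding proteins used to meet and enter the egg coat. It is built in round spermatids, so mRNAs for its contents are a well known part of the haploid transcriptome. Spermatids also store many mRNAs outside polysomes before they are translated, so the amount of an mRNA and its share on polysomes are separate measurements. Described here are 10 genes for acrosomal matrix and membrane proteins, out of 28643 gene symbols in the deposited table. They were set by name, with no threshold on their values but with earlier results of these data known: Acr, Acrbp, Acrv1, Zpbp, Zpbp2, Spaca1, Spaca3, Spaca4, Spaca7 and Zp3r. All 10 were present in all 12 libraries and passed the filter on low values in each comparison.

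The libraries came from round spermatids that were sorted by flow cytometry from testes of 8-week-old male mice, with cycloheximide present to hold ribosomes in place. Igf2bp3+/- mice carried 1 intact copy of Igf2bp3, which encodes an mRNA-binding protein, and served as the control, and Igf2bp3-/- mice carried a frameshift made with Cas9 on both copies. The paper states that Igf2bp3-/- males whose fertility was impaired were picked for the set of experiments that includes these libraries. By the methods, each extract held the spermatids of 1 mouse, of which a part was sequenced as input (RNA-seq) and the rest was run on a sucrose gradient, and the labels give 4 or more ribosomes per mRNA for the polysome fractions (RNC-seq, for ribosome nascent-chain complexes). There were 3 biological replicates of each genotype in each assay. The frameshift is carried by all cells of the animal and not by spermatids alone, and the control is a heterozygote and not a wild type.

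Values are FPKM, fragment counts scaled to the length of the transcript and to the mapped total of the library, and can be compared between genes because they are divided by length. The members took 0.343% to 0.534% of the summed FPKM of a library. Read depth is unknown. A relative depth was estimated from the most frequent non-zero value of FPKM times transcript length, among genes with a single annotated transcript. It ranged from 0.38 to 0.55 of that of the deepest library, an Igf2bp3-/- RNA-seq library. The most abundant transcript, CT010467.1, held 5.68% to 19.4% of a library. Rescaling without it, or to a common median or distribution, shifted the all-gene median of polysomal against total RNA in Igf2bp3+/- spermatids from -0.09 on the log2 scale to values between -0.28 and 0.07. Igf2bp3 itself, of whose exonic bases 18.7% lie opposite Malsu1, had a mean of 36.7 ± 2.91 (SD, n = 3) in control RNA-seq and of 31.9 ± 0.536 FPKM in the knockout, a log2 change of -0.20 (adjusted p = 0.336, limma). A gene-level FPKM does not read a frameshift, so this value does not check the genotype.

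Of the cell types, 6 markers of round spermatids, among them the members Acrv1 and Spaca1, summed to between 1109 and 1716 FPKM in every library, against 7.37 to 10.4 FPKM for 6 markers of spermatogonia. In RNA-seq the round spermatid sum was 1109 to 1209 FPKM in Igf2bp3+/- and 1300 to 1489 FPKM in Igf2bp3-/-, without overlap. In RNC-seq the sums of 1260 to 1534 and 1452 to 1716 FPKM overlapped. Spermatocyte markers summed to 60.4 to 141.5 FPKM, and markers of elongating spermatids, whose mRNAs round spermatids are known to make ahead of use, to 8624 to 21210 FPKM. Leydig cell markers, which a sorted spermatid should lack, differed between genotypes. Their summed level was 14.5 to 21.5 FPKM in Igf2bp3+/- and 46.1 to 52.5 FPKM in Igf2bp3-/- RNA-seq, and 6.19 to 13.9 against 50.3 to 99.98 FPKM in RNC-seq. All 5 Leydig markers tested had a positive log2 change from Igf2bp3+/- to Igf2bp3-/- in both assays, with a median of 1.27 in RNA-seq and 1.76 in RNC-seq. At an adjusted p below 0.05, 3 passed as higher in RNA-seq and 1 in RNC-seq, where 0.256% and 0.115% of all genes passed. Most of that sum was Insl3, which shares 64.8% of its exonic bases with Jak3, and 1 of the 6 markers, Hsd17b3, was at 0 in all Igf2bp3+/- RNA-seq libraries. The summed markers of Sertoli cells, peritubular cells and macrophages were also higher in every Igf2bp3-/- library than in the Igf2bp3+/- libraries of the same assay. They reached at most 7.72, 5.82 and 5.37 FPKM in RNA-seq and 4.04, 4.10 and 6.43 FPKM in RNC-seq. The Sertoli sum in RNA-seq followed Clu, whose mean was 3.125 FPKM in Igf2bp3+/- and 6.695 FPKM in Igf2bp3-/-. Of the 4 Sertoli markers tested there, 3 had a positive log2 change, with a median of 0.38 and a lowest value of -0.81. In RNC-seq all 3 Sertoli markers tested had a positive log2 change, with a median of 0.92. In RNA-seq the peritubular sum followed Dcn, whose mean was 0.872 FPKM in Igf2bp3+/- and 3.88 FPKM in Igf2bp3-/-, while 2 of the 5 peritubular markers tested had a positive log2 change and the median was -0.30. In RNC-seq all 4 peritubular markers tested had a positive log2 change, with a median of 0.79. The part of these cells in the differences between genotypes below was not tested.

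The members stand apart from each other in the genome and none has a near-identical copy elsewhere in the annotated transcripts (GRCm38, GENCODE M21). Acr, which encodes the serine protease acrosin, lies on chromosome 15 at 89568326 to 89574585 and its partner Acrbp, which encodes the protein that holds proacrosin in its inactive form, on chromosome 6 at 125049689 to 125063267. Zpbp (chromosome 11, 11279626 to 11462408) and Zpbp2 (chromosome 11, 98551097 to 98558665) encode related zona pellucida binding proteins. Acrv1, for the acrosomal matrix protein SP-10, lies on chromosome 9 at 36693220 to 36698843, and Zp3r, for the matrix protein sp56, on chromosome 1 at 130576713 to 130629621. The SPACA genes, named as sperm acrosome associated, lie on chromosome 4 (Spaca1, 34024874 to 34050191), chromosome 11 (Spaca3, 80858365 to 80867814), chromosome 7 (Spaca4, 45725107 to 45725813) and chromosome 8 (Spaca7, 12573029 to 12600744). Spaca4 is a gene of 1 exon, whereas the longest transcripts of the others have between 2 and 12 exons. Of the exonic bases of Acrbp 29.8% are shared with Gm44597 on the same strand and 2.75% lie opposite 4930557K07Rik, and 13.5% of those of Spaca7 and 5.25% of those of Zpbp lie opposite another gene, so over those parts their FPKM is uncertain.

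Transcription in round spermatids is known to use CREM, an activator that binds the cAMP response element TGACGTCA. This element was searched on both strands in promoter windows of 300 bases, from 250 before to 50 after each RefSeq start (GRCm38.p6), which were at hand for 9 of the 10 members. The full element occurred in 1.79% of 32851 windows and in no window of a member. Its 5-letter part TGACG, which every full element contains, occurred in 20.8% of all windows and in those of 4 members, Acrbp, Zpbp2, Spaca1 and Spaca3. TATAAA occurred in 13.6% of all windows and in that of 1 member, Spaca7. The matches are descriptions of these windows and not binding sites. To show where the 4 members carry the short element, 30 bases around it are printed 5′ to 3′ on the strand of the gene, with TGACG or its reverse reading CGTCA in capitals. The Acrbp stretch is chr6:125049897-125049926 (+), that of Zpbp2 is chr11:98550938-98550967 (+), that of Spaca1 is chr4:34050117-34050146 (-) and that of Spaca3 is chr11:80858289-80858318 (+).
Acrbp: cctcaccttctgTGACGtagcagccgcgcc
Zpbp2: gtttcctttactCGTCAcaccaccaggccg
Spaca1: cttcgaatggggTGACGcgcggTGACGcct
Spaca3: cacaggtgatctTGACGaagttccgtgagt
The element started 18 bases before the RefSeq start in Acrbp, 147 before it in Zpbp2, and 62 before the nearer of the annotated starts in Spaca3. Spaca1 carried it as a close pair, whereas the others had 1 copy in the stretch shown.

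The acrosomal mRNAs were abundant in the sorted spermatids. In Igf2bp3+/- RNA-seq their means ran from 35.1 ± 2.67 FPKM for Zpbp to 419.8 ± 39.6 FPKM for Acrbp (SD, n = 3), and 88.1% to 99.5% of the 20494 genes with a mean above 0.1 FPKM had a lower mean. Acrbp stood above all other members without overlap. Below it came Zpbp2, Acr, Acrv1, Spaca3 and Spaca1, with means between 178.8 and 228.1 FPKM, and each overlapped its neighbour in that order. Spaca4, Spaca7 and Zp3r followed with means between 98.6 and 122.7 FPKM, and of these the libraries of Spaca7 overlapped those of both others. Zpbp was lowest, with its highest library at 37.95 FPKM. Acrbp was the highest and Zpbp the lowest member in all 4 groups, whereas the order between them changed on polysomes, where Spaca3 ranked 2nd and Acr 7th in both genotypes.

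**Figure D1:**
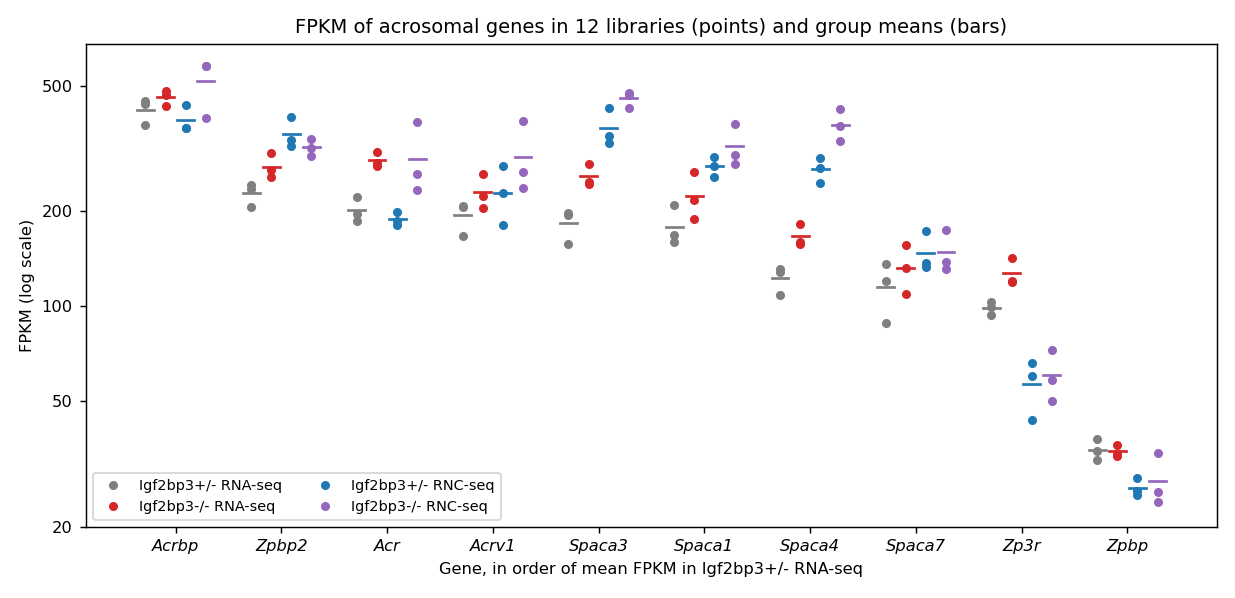
FPKM on a log axis of the 10 acrosomal genes, in order of their mean in Igf2bp3+/- RNA-seq, with a point for each of the 12 libraries and a bar for each group mean (n = 3). Spaca3 and Spaca4 lie higher in RNC-seq than in RNA-seq of the same genotype and Zp3r lies lower, without overlap between the assays.

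The members differed from each other in how much of their mRNA was on polysomes. Loading was taken as the log2 change of FPKM + 0.1 from RNA-seq to RNC-seq within a genotype, and since FPKM is relative to the library total it is loading relative to other mRNAs. In Igf2bp3+/- spermatids 4 of the 10 members were higher on polysomes (Spaca4, Spaca3, Spaca1 and Zpbp2) and 2 were lower (Zp3r and Zpbp) at an adjusted p below 0.05. Over all 17942 genes tested, 43.7% passed that limit, 18.6% as higher and 25.1% as lower on polysomes. The median log2 loading of the members was 0.30 against -0.09 for all genes. It was 0.07 against -0.28 without CT010467.1, and 0.46 against 0.07 after scaling to a common median. With quantile normalization the members, at 0.02, did not exceed all genes, at 0.04. By construction, a bulk value of a sorted sample cannot tell fewer cells of a type from less RNA per cell.

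Spaca4, a sperm surface and acrosomal membrane protein anchored by a lipid, had the highest loading. Its FPKM was 128, 131 and 109 in the Igf2bp3+/- RNA-seq libraries and 294, 275 and 246 in the RNC-seq libraries, and in Igf2bp3-/- it was 160.3, 157 and 182 against 421, 334 and 372. Every RNC-seq library was above every RNA-seq library in both genotypes. The log2 loading was 1.15 ± 0.13 (SE) in Igf2bp3+/- (adjusted p = 0.000235) and 1.17 ± 0.16 in Igf2bp3-/- (adjusted p = 0.0031), so the groups of the genotypes differed by 0.02, with a 95% confidence interval from -0.40 to 0.44.

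Spaca3, a lysozyme-like protein of the acrosome, came next. In Igf2bp3+/- it was at 197, 195 and 158 FPKM in RNA-seq and at 426, 329 and 346 FPKM in RNC-seq. In Igf2bp3-/- the values were 244, 248 and 283 FPKM in RNA-seq and 466, 427 and 476 FPKM in RNC-seq. As for Spaca4, the assays did not overlap in either genotype. The log2 loading was 1.00 ± 0.14 in Igf2bp3+/- (adjusted p = 0.000815) and 0.82 ± 0.15 in Igf2bp3-/- (adjusted p = 0.00771). In Igf2bp3-/- the adjusted p was 0.0522 without RNA-seq replicate 1 and 0.0546 without RNA-seq replicate 2, at log2 loadings of 0.78 and 0.79.

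Zp3r, whose product sp56 was first known as a binder of the egg coat, went the other way. Its FPKM was 103, 99.1 and 93.8 in Igf2bp3+/- RNA-seq and 60.02, 43.7 and 66.1 in RNC-seq, and in Igf2bp3-/- 119, 120.5 and 142 against 72.6, 58.5 and 50.05. All RNC-seq libraries were below all RNA-seq libraries. The log2 loading was -0.82 ± 0.16 in Igf2bp3+/- (adjusted p = 0.00373) and -1.09 ± 0.18 in Igf2bp3-/- (adjusted p = 0.00546).

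Spaca1, a transmembrane protein of the acrosome whose loss is known to disturb the shape of the sperm head, was at 209, 168 and 159.9 FPKM in Igf2bp3+/- RNA-seq and at 298, 278 and 258 FPKM in RNC-seq. The assays did not overlap, and the log2 loading was 0.64 ± 0.13 (adjusted p = 0.00486). In Igf2bp3-/- it was 218, 189.6 and 266 against 379, 302 and 283 FPKM, again without overlap, with a log2 loading of 0.52 ± 0.19 (adjusted p = 0.0778).

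The zona pellucida binding protein pair differed in level and in loading. Zpbp2 was at 236, 243 and 206 FPKM in Igf2bp3+/- RNA-seq and at 398, 323 and 336 FPKM in RNC-seq, without overlap, a log2 loading of 0.62 ± 0.13 (adjusted p = 0.00441). In Igf2bp3-/- the RNA-seq values of 257, 269 and 306 FPKM overlapped the RNC-seq values of 300.5, 339.7 and 316 FPKM, and the log2 loading was 0.20 ± 0.15 (adjusted p = 0.381). Zpbp was at 37.95, 32.6 and 34.8 FPKM in Igf2bp3+/- RNA-seq and at 28.5, 25.2 and 26.04 FPKM in RNC-seq. That is a log2 loading of -0.40 ± 0.12 (adjusted p = 0.0277), against -0.32 ± 0.18 (adjusted p = 0.227) in Igf2bp3-/-.

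The calls of these last members in Igf2bp3+/- depended on the scaling or on 1 library. With quantile normalization the adjusted p was 0.0593 for Zpbp2 and 0.0869 for Spaca1, and with each library centred on its median it was 0.141 for Zpbp. The Zpbp call was also lost without RNA-seq replicate 1, 2 or 3 or RNC-seq replicate 3, with adjusted p between 0.0593 and 0.117. The calls of Spaca3, Spaca4 and Zp3r in Igf2bp3+/- and of Spaca4 and Zp3r in Igf2bp3-/- held under all 17 alternatives run.

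Acr, Acrbp, Acrv1 and Spaca7 did not pass the limit in either genotype. Their log2 loading in Igf2bp3+/- was -0.09 ± 0.11 for Acr, -0.10 ± 0.13 for Acrbp, 0.22 ± 0.17 for Acrv1 and 0.37 ± 0.18 for Spaca7. Acrosin and its binding protein thus had values within 1 SE of 0. Under other scalings some of these passed or turned: with each library centred on its median, Acrv1 (0.38, adjusted p = 0.0339) and Spaca7 (0.53, adjusted p = 0.0122) passed as higher and Acr and Acrbp turned positive. With quantile normalization Acr (-0.39, adjusted p = 0.0162) and Acrbp (-0.47, adjusted p = 0.0198) passed as lower. With CT010467.1 left out Acr also passed as lower (-0.32, adjusted p = 0.0482), where the median of all genes was -0.28.

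In Igf2bp3-/- spermatids 2 members were higher on polysomes (Spaca4 and Spaca3) and 1 was lower (Zp3r), where 21% of the 18456 genes tested passed the limit, 10.1% as higher and 10.9% as lower. The median log2 loading of the members was 0.18 against -0.04 for all genes. It turned to -0.07 with quantile normalization, against 0.02 for all genes, and to -0.04 with CT010467.1 left out, against -0.22 for all genes. No member was called in this genotype that was not called in Igf2bp3+/-. Spaca1 passed in Igf2bp3-/- under 3 of the 17 alternatives (adjusted p = 0.0401 with median centring, 0.0324 with all 12 libraries in 1 fit and 0.038 with array weights), and Zpbp passed as lower under 1 (adjusted p = 0.0391 with CT010467.1 left out).

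**Figure D2:**
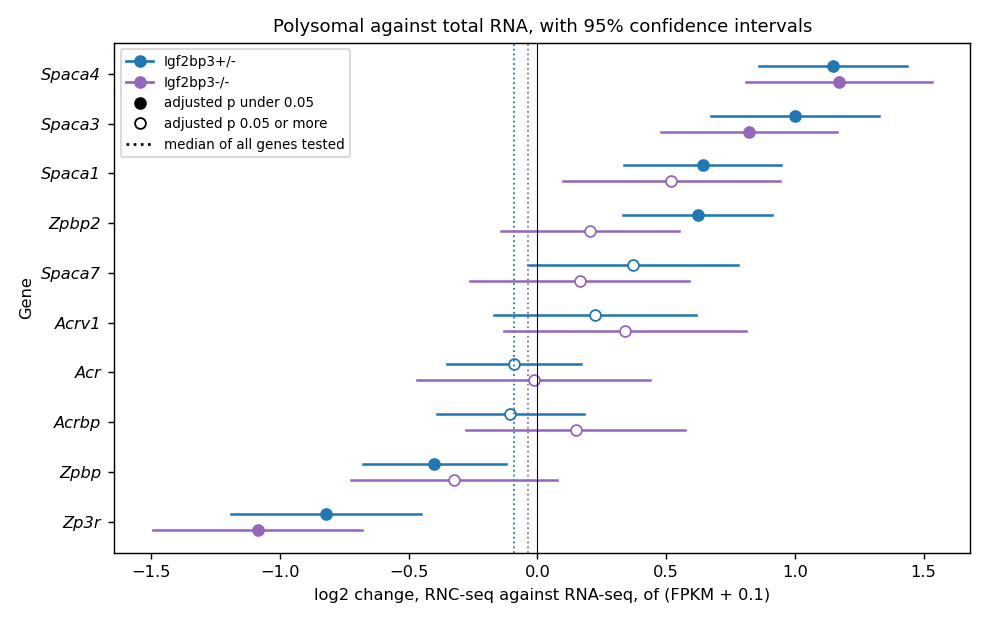
Log2 change of FPKM + 0.1 from RNA-seq to RNC-seq for the 10 acrosomal genes, with 95% confidence intervals from limma and 3 libraries per group. Filled points have an adjusted p under 0.05 and dotted lines mark the median of all genes tested (-0.09 in Igf2bp3+/- and -0.04 in Igf2bp3-/-). Spaca4 and Spaca3 are at the upper end and Zp3r at the lower end in both genotypes.

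The same pattern can be read without any scaling between libraries, from the ratio of FPKM of a pair of members within a library. The pairs were chosen after the values were seen and the ratios carry no test. Spaca4 over Zp3r was 1.24 ± 0.0811 (SD, n = 3) in Igf2bp3+/- RNA-seq and 1.31 ± 0.0338 in Igf2bp3-/- RNA-seq. On polysomes the same ratio was 4.97 ± 1.28 in Igf2bp3+/- and 6.32 ± 0.967 in Igf2bp3-/-. The lowest RNC-seq library, at 3.73, was above the highest RNA-seq library, at 1.35. Zpbp2 over Zpbp was 6.52 ± 0.805 in Igf2bp3+/- RNA-seq and 13.2 ± 0.651 in RNC-seq. In Igf2bp3-/- it was 8.03 ± 1.02 in RNA-seq and 11.7 ± 2.55 in RNC-seq, where the libraries of the assays overlapped. Acr over Acrbp was 0.48 ± 0.0283 in Igf2bp3+/- RNA-seq and 0.486 ± 0.0561 in RNC-seq, so this pair kept its proportion between the assays within the spread of the replicates.

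**Figure D3:**
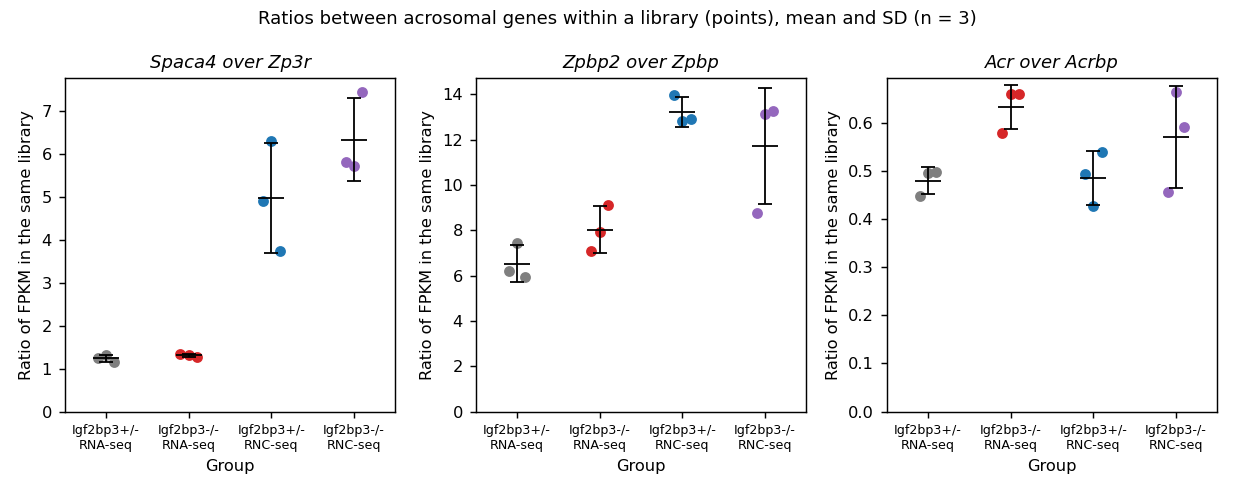
Ratio of the FPKM of a pair of acrosomal genes within each library, for Spaca4 over Zp3r, Zpbp2 over Zpbp and Acr over Acrbp, with axes from 0, points for the 3 libraries of a group, and the mean with its SD. Spaca4 over Zp3r is 1.16 to 1.35 in RNA-seq and 3.73 to 7.43 in RNC-seq.

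Between genotypes, no member changed at an adjusted p below 0.05 in RNA-seq, where 0.256% of the 20352 genes tested did. The log2 change from Igf2bp3+/- to Igf2bp3-/- was positive for 9 of the 10 members and for 56.15% of all genes. The median was 0.30 for the members against 0.05 for all genes. It was 0.30 against 0.04 with median centring, 0.18 against -0.07 with CT010467.1 left out and 0.11 against 0.002 with quantile normalization. All 6 round spermatid markers, among them the members Acrv1 and Spaca1, had a positive change too, with a median of 0.24, and none passed the limit. At an unadjusted p below 0.05, 5 members were higher (Acr, Spaca3, Spaca4, Zp3r and Zpbp2), where 15.7% of all genes passed in either direction. The same 5 had Igf2bp3-/- libraries that were all above the Igf2bp3+/- libraries, which held for 14.1% of all genes. None was lower without overlap.

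Acr had the smallest p. It was at 196, 221 and 186 FPKM in Igf2bp3+/- and at 278, 285 and 307 FPKM in Igf2bp3-/- RNA-seq. The Igf2bp3-/- libraries were all higher, by a log2 change of 0.53 ± 0.09 (adjusted p = 0.0956). The 18 alternatives gave log2 changes between 0.34 and 0.60 and adjusted p between 0.0518 and 0.464.

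The values of Spaca3, Spaca4, Zp3r and Zpbp2 are given above. Spaca3 had a log2 change of 0.50 ± 0.11 (adjusted p = 0.154), and Spaca4 of 0.44 ± 0.10 (adjusted p = 0.158). For Zp3r it was 0.36 ± 0.10 (adjusted p = 0.179) and for Zpbp2 0.28 ± 0.10 (adjusted p = 0.255). In each, the lowest Igf2bp3-/- library was above the highest Igf2bp3+/- library, by the smallest margin in Zpbp2 (257 against 243 FPKM).

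The other members overlapped between genotypes. Acrv1 ranged from 167 to 208 FPKM in Igf2bp3+/- and from 205 to 263 FPKM in Igf2bp3-/-, a log2 change of 0.25 ± 0.12 (adjusted p = 0.367). Spaca1 had a log2 change of 0.32 ± 0.14 (adjusted p = 0.328), and Spaca7, a matrix protein found at 88.6 to 136 FPKM in Igf2bp3+/- and 109 to 156 FPKM in Igf2bp3-/-, had 0.21 ± 0.18 (adjusted p = 0.583). Acrbp ranged from 374 to 447 FPKM in Igf2bp3+/- and from 432 to 481 FPKM in Igf2bp3-/-, a log2 change of 0.13 ± 0.10 (adjusted p = 0.532) that turned to -0.05 with quantile normalization. Zpbp was nearest to 0 at -0.02 ± 0.09, with a 95% confidence interval from -0.23 to 0.19.

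Acr and Acrbp therefore stood in another proportion in the knockout RNA-seq libraries: Acr over Acrbp was 0.447 to 0.497 in Igf2bp3+/- and 0.579 to 0.66 in Igf2bp3-/-, without overlap. In RNC-seq the ranges of 0.427 to 0.539 and 0.456 to 0.665 overlapped. This pair too was picked after its values were seen.

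On polysomes no member changed between genotypes at an adjusted p below 0.05 either, where 0.115% of 19051 genes did. The median log2 change was 0.26 against 0.13 for all genes, and it lay at 0.14 under each of the 3 other scalings. The medians of all genes there were 0.008 with median centring, -0.01 with quantile normalization and 0.016 with CT010467.1 left out. At an unadjusted p below 0.05, 2 members were higher (Acr and Spaca4), where 6.48% of all genes passed in either direction. The Igf2bp3-/- libraries were all above the Igf2bp3+/- libraries for 3 members (Acr, Spaca3 and Spaca4), as for 9.44% of all genes.

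Acr was at 181, 186 and 199 FPKM in Igf2bp3+/- RNC-seq and at 263, 384.6 and 234 FPKM in Igf2bp3-/- RNC-seq. The spread of the knockout libraries was wide, with replicate 2 the highest, and the log2 change was 0.61 ± 0.22 (adjusted p = 0.735). The log2 change was 0.46 ± 0.19 for Spaca4 (adjusted p = 0.756) and 0.32 ± 0.19 for Spaca3 (adjusted p = 0.809). Acrbp, at 367 to 435 FPKM in Igf2bp3+/- and 394 to 578 FPKM in Igf2bp3-/-, had 0.39 ± 0.21 (adjusted p = 0.805). Acrv1 had 0.37 ± 0.24 and Spaca1 0.20 ± 0.20 (adjusted p = 0.83 and 0.876).

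Zpbp, Zpbp2, Spaca7 and Zp3r had RNC-seq log2 changes of 0.06, -0.14, 0.01 and 0.10, each smaller than its SE (0.21, 0.19, 0.21 and 0.23). Spaca7 was at 133 to 173 FPKM in Igf2bp3+/- and 131 to 175 FPKM in Igf2bp3-/-. With each library centred on its median, Zpbp, Spaca7 and Zp3r turned to -0.06, -0.11 and -0.02.

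**Figure D4:**
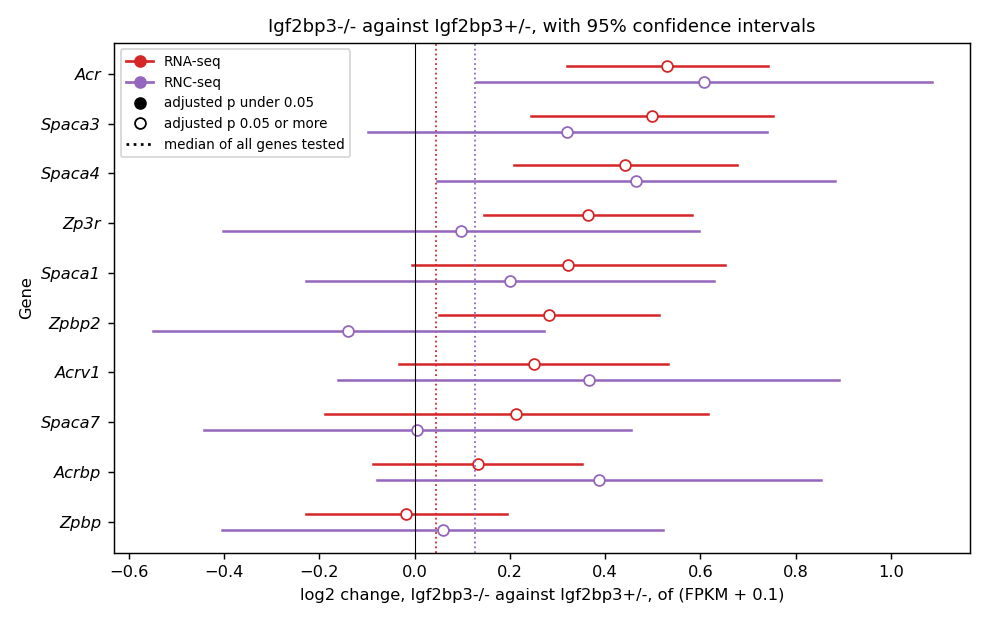
Log2 change of FPKM + 0.1 from Igf2bp3+/- to Igf2bp3-/- for the 10 acrosomal genes in RNA-seq and RNC-seq, with 95% confidence intervals from limma and 3 libraries per group; dotted lines mark the median of all genes tested (0.05 in RNA-seq and 0.13 in RNC-seq). All points are open, since no adjusted p is under 0.05, and the RNC-seq intervals are wider than the RNA-seq intervals.

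Translational efficiency (TE) was compared between genotypes as the interaction of assay and genotype over the 12 libraries, which tests directly whether loading differed. No member passed an adjusted p of 0.05, where 0.00543% of the 18414 genes tested did, that is 1 gene. At an unadjusted p below 0.05, 1 member passed, Zpbp2, as 7.13% of all genes did in either direction. Its TE change was -0.42 ± 0.19 on the log2 scale (adjusted p = 0.692, 95% confidence interval from -0.83 to -0.01).

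Of the 10 members 5 had a positive TE change and 5 a negative one, where 55.65% of all genes had a positive one. The median was -0.05 for the members against 0.06 for all genes. Acrbp had the highest at 0.25 ± 0.23 and Zp3r was at -0.27 ± 0.25 (adjusted p = 0.798 and 0.804). Spaca1 and Zpbp, whose loading passed the limit in Igf2bp3+/- and, as fitted, not in Igf2bp3-/-, had TE changes of -0.12 ± 0.23 and 0.08 ± 0.21, so their loading is not shown to differ between genotypes. As the plain ratio of mean RNC-seq to mean RNA-seq FPKM, TE ran from 0.574 for Zp3r to 2.22 for Spaca4 in Igf2bp3+/- and from 0.474 for Zp3r to 2.26 for Spaca4 in Igf2bp3-/-. The ratio of Zpbp2 was 1.54 in Igf2bp3+/- and 1.15 in Igf2bp3-/-, that is 0.745 of the control value, and those of the other members were between 0.826 and 1.21 of it.

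Other acrosomal genes were read from lists for comparison. A list of 18 further acrosomal contents, such as hyaluronidases, protease inhibitors and chaperones, held 6 genes that were higher and 5 that were lower on polysomes in Igf2bp3+/-, and 4 higher and 3 lower in Igf2bp3-/-. The shares over all genes were those given above for the members (18.6% higher and 25.1% lower in Igf2bp3+/-, 10.1% and 10.9% in Igf2bp3-/-). The median log2 loading of the contents was 0.21 in Igf2bp3+/-, against -0.09 for all genes. Under the other scalings, a reading added after the data were seen, that median lay between -0.02 and 0.37, and it was negative with CT010467.1 left out (all genes -0.28). Spink2, an inhibitor of acrosomal proteases, rose from 703.9 to 2089 FPKM in Igf2bp3+/- (log2 loading 1.57 ± 0.16, adjusted p = 0.000157). Zan, for the large matrix protein zonadhesin, fell from 17.1 to 1.35 FPKM (log2 loading -3.59 ± 0.20, adjusted p = 4.06e-05). Hspa5, the chaperone of the endoplasmic reticulum, had a log2 loading of -1.41 ± 0.18 (adjusted p = 0.000441). In Igf2bp3-/- the log2 loadings of Spink2, Zan and Hspa5 were 1.20, -2.59 and -1.46. Like the members, these genes thus held both directions of loading.

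Of 16 further acrosomal membrane and equatorial genes 6 were higher and 1 was lower on polysomes in each genotype, with a median log2 loading of 0.56 in Igf2bp3+/- and 0.33 in Igf2bp3-/- (all genes -0.09 and -0.04). Under the other scalings the medians stayed positive, at 0.33 to 0.71 in Igf2bp3+/- and 0.12 to 0.38 in Igf2bp3-/-, and 6 to 11 and 5 to 7 genes were higher. The counts of 11 and 7 came with median centring. There 8285 of 17942 genes tested in Igf2bp3+/- and 4140 of 18456 in Igf2bp3-/- were called. Of these calls 55.9% and 54.6% were higher on polysomes, a share of calls and not of genes tested. Tmem210 had a log2 loading of 1.22 ± 0.19 and Fam209 of 1.12 ± 0.18 in Igf2bp3+/- (adjusted p = 0.00104 and 0.00135), and 1.28 and 1.14 in Igf2bp3-/-. Izumo4, of the family of the sperm fusion protein IZUMO1, was at 1.16 ± 0.12 in Igf2bp3+/- (adjusted p = 0.000165). Tmem190, a membrane protein of the inner acrosome, was at 1.08 ± 0.16 in Igf2bp3-/- (adjusted p = 0.00394).

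Genes that act in building the acrosome, as opposed to filling it, were read in the same way. Of 20 tested genes of acrosome biogenesis and Golgi traffic, 13 were lower and 1 was higher in Igf2bp3+/-, and 6 were lower and 1 was higher in Igf2bp3-/-. Over all genes tested, 25.1% were lower and 18.6% higher in Igf2bp3+/-, and 10.9% and 10.1% in Igf2bp3-/-. The median log2 loading of the list was -0.57 in Igf2bp3+/- and -0.45 in Igf2bp3-/- (all genes -0.09 and -0.04). Under the other scalings the medians stayed negative, at -0.80 to -0.42 in Igf2bp3+/- and -0.67 to -0.41 in Igf2bp3-/-, and 11 to 15 and 5 to 13 genes were lower. The counts of 15 and 13 came with CT010467.1 left out. There the medians of all genes were -0.28 and -0.22. Of the 8393 and 4443 genes called, 29.4% and 27.4% were higher on polysomes, a share of calls and not of genes tested. Agfg1, which acts in the fusion of proacrosomal vesicles, fell from 38.3 to 9.3 FPKM in Igf2bp3+/- (log2 loading -2.03 ± 0.14, adjusted p = 4.82e-05) and had -1.94 ± 0.19 in Igf2bp3-/-. Vps13b, a lipid transfer protein of the Golgi, had -2.27 ± 0.17 in Igf2bp3+/- and -1.35 ± 0.30 in Igf2bp3-/-. The golgin genes Golga3 and Tmf1 were named in 1 genotype each, with -1.77 ± 0.16 in Igf2bp3+/- and -1.85 ± 0.18 in Igf2bp3-/-. Between genotypes none of the genes of the 3 lists passed the limit in RNA-seq, RNC-seq or TE. In RNA-seq the medians were 0.26 for contents, 0.30 for membrane and equatorial genes and 0.02 for biogenesis, against 0.05 for all genes. At an unadjusted p below 0.05, which 15.7% of all genes passed, there were 11 of 18 contents genes (9 of them higher in Igf2bp3-/-), 7 of 16 membrane and equatorial genes (all higher) and 4 of 20 biogenesis genes (3 higher).

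The genes whose pattern over the 12 libraries was most like that of the members were described by Pearson's r on log2(FPKM + 0.1), among 12265 genes with a mean FPKM of at least 1. The libraries fall into 2 assays and share their scaling, and the values are descriptions with no test. For the mean of the 10 members, the 5 most alike were Capns1 (r = 0.945), Rtca (0.944), Sun5 (0.931), Cyb5d1 (0.928) and Papola (0.928). Of the single members, Spaca4 was matched most closely, by Atp6v1e2 (r = 0.997), which encodes a testis form of a subunit of the vacuolar proton pump. Spaca3 was matched by Spata46 (r = 0.991), a gene of the biogenesis list, and Zp3r by Pdilt (r = 0.981), a testis chaperone of the endoplasmic reticulum. Acrv1 had the lowest best match, with Ypel5 (r = 0.9). The best matches of the other members were Spaca1 with 1700086L19Rik (0.976), Zpbp2 with Gm35202 (0.972), Zpbp with Gm45444 (0.965), Spaca7 with 4931428L18Rik (0.95), Acrbp with Ubald1 (0.95) and Acr with Tcea2 (0.938).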

How the data were processed

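RNA-seq and RNC-seq were measured in sorted round spermatids of 2 genotypes, with 3 libraries in each of 4 groups. The authors trimmed reads with Trim Galore 0.6.6, aligned them to GRCm38 with HISAT2 and quantified them with StringTie 2.1.7, and deposited 1 table of FPKM per gene symbol. The annotation release and the use of strand are not given in the sources used here. The extract protocol in the labels describes polysome fractions for every sample, and the split into input and polysomes follows the titles and the methods. Columns named WT are the Igf2bp3+/- libraries by the labels. Of 28668 rows, 25 symbols had been turned into dates (0.0995% of the summed FPKM) and were left out. FPKM carries no counts, so no counting interval was computed.

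Values were analysed as log2(FPKM + 0.1), a scale on which the fold changes of low genes are understated, with limma 3.58.1 in R 4.3.3 (intensity trend, two-sided, Benjamini-Hochberg over all genes tested, limit 0.05), among genes with a mean above 0.1 FPKM. The code was tested on simulated data. Copies were sought with BLAST 2.17.0 (identity of 95% or more, covering 50% or more of a gene's longest transcript). The members and lists were chosen with earlier results of these data known. All members are named, Igf2bp3 as the target, up to 3 called list genes of the largest change per comparison with a mean of at least 1 FPKM, and the genes most alike in pattern; other genes were named after their values were seen. Alternatives covered pseudocount, filter, scaling, samples fitted, replicate block, weights, call rule and single libraries.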

Additional observations from a re-analysis of the deposited data

How the results depend on the processing

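Of the log2 changes of single members under the alternatives, 176 of 180 in RNA-seq, 164 of 180 in RNC-seq, 154 of 170 in the loading of each genotype and 205 of 220 in TE kept their direction and their side of the limit. No member passed an adjusted p of 0.05 between genotypes under any alternative run. By an unadjusted p below 0.05 with a change over 1.5-fold, 1 member was counted in RNC-seq (Acr), and all genes called became 1109 in RNA-seq, 1102 in RNC-seq and 1207 in TE. With a log2 change over 1.5, a limit added after the data were seen, they became 158 and 188, with no member.

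All genes called in RNA-seq were 52, against 31 without a filter and 84 with array weights. In RNC-seq they were 22, against 2 without a filter, 13 with median centring, 12 with quantile normalization and 48 with all 12 libraries in 1 fit. In TE they were 1, against 0 with a pseudocount of 1, 2 with a pseudocount of 0.01, 0 with a mean above 1 FPKM and 0 with array weights. Leaving out 1 library gave 9 to 38 in RNA-seq (9 without Igf2bp3-/- replicate 1 or replicate 2, and 11 without replicate 3). It gave 0 to 20 in RNC-seq (0 without Igf2bp3-/- replicate 1), 1155 to 6182 in Igf2bp3-/- loading (1155 without RNA-seq replicate 1, 6182 without RNC-seq replicate 2) and 1 to 2 in TE. The share of calls that were higher was 42.5% in Igf2bp3+/- loading, 55.9% with median centring and 29.4% without CT010467.1. In Igf2bp3-/- loading it was 48.2% and 27.4% without CT010467.1, in RNA-seq 76.9% and 62.3%, and in RNC-seq 68.2%, against 53.3% without CT010467.1, 46.2% with median centring and 41.7% with quantile normalization.

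By the methods the input and polysome parts of an extract come from the same mouse, but the labels do not say that the replicate numbers match between the assays, and the loading and TE fits treat the libraries as independent. Between the assays, deviations from the group mean at the same number had correlations of -0.104 to 0.205, with 4 of 6 pairs over 0.1, and between the genotypes of -0.083 to 0.241. Of 12 libraries 8 correlated best with their own number in the other assay, a hint of pairing from the data that was not taken as the design. With the number as a block, all genes called were 4 in RNA-seq, 31 in RNC-seq, 7678 and 4123 in the loading of Igf2bp3+/- and Igf2bp3-/-, and 0 in TE, and the calls of members did not change. Between genotypes this block ties different mice that share a number, a pairing that neither the labels nor the methods give.

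Values that turned sign were all from members short of the limit or from medians. With quantile normalization they were Acrbp in RNA-seq (-0.046), Acrv1 in Igf2bp3+/- loading (-0.119), Zpbp, Spaca7 and Zp3r in RNC-seq (-0.080, -0.128 and -0.053), and in Igf2bp3-/- loading the median of the members (-0.075), Acrbp (-0.168), Zpbp2 (-0.116) and Spaca7 (-0.033). Without CT010467.1 they were Zpbp, Spaca7 and Zp3r in RNC-seq (-0.059, -0.112 and -0.021) and in Igf2bp3-/- loading the median (-0.037), Acrbp (-0.071), Zpbp2 (-0.018) and Spaca7 (-0.057). With median centring they were Zpbp, Spaca7 and Zp3r in RNC-seq (-0.060, -0.113 and -0.022), Acr and Acrbp in Igf2bp3+/- loading (0.067 and 0.053), Acr in Igf2bp3-/- loading (0.027), and Acr, Acrv1, Zpbp and Spaca4 in TE (-0.053, -0.014, -0.053 and -0.107). With array weights it was Zpbp in RNA-seq (0.011). Leaving out 1 library, the ranges that crossed 0 were -0.069 to 0.040 for Zpbp in RNA-seq. In RNC-seq they were -0.094 to 0.164 for Zpbp, -0.119 to 0.126 for Spaca7 and -0.079 to 0.224 for Zp3r. In Igf2bp3-/- loading it was -0.225 to 0.134 for Acr. In TE they were -0.134 to 0.225 for Acr, -0.092 to 0.268 for Acrv1, -0.077 to 0.182 for Zpbp, -0.248 to 0.0062 for Spaca1 and -0.063 to 0.107 for Spaca4. The cause was not tested.

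With 3 libraries a group, differences of single members were known within wide limits, the widest being the 95% confidence interval of Acrv1 in TE, from -0.495 to 0.73. Loading is relative to the library total, and cells, stages and RNA per cell were not measured apart.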

Other observations

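The called members also differed in the length of their annotated transcripts, which the choice of genes did not use. The longest GENCODE transcripts of the 4 members that were higher on polysomes in Igf2bp3+/- had 707 bases (Spaca4), 947 (Spaca3), 1197 (Spaca1) and 1577 (Zpbp2), whereas those of the 2 lower members had 2042 (Zp3r) and 4248 (Zpbp). Of the members that were not called, Spaca7 (967 bases) and Acr (1504) lie within the range of the higher ones, and Acrbp (1883) and Acrv1 (3265) above it. The named genes of the 3 acrosomal lists that were higher on polysomes had 516 bases (Tmem210), 589 (Tmem190), 643 (Spink2), 698 (Fam209) and 1845 (Izumo4), and those that were lower had 3672 (Hspa5), 5732 (Tmf1), 8044 (Agfg1), 8132 (Golga3), 13757 (Vps13b) and 16481 (Zan). Among the called cell type markers the order did not hold throughout: in Igf2bp3+/- Tssk1 (3700 bases) was higher on polysomes, with a log2 loading of 0.52, and Insl3 (623 bases), Odf1 (1105) and Clu (1810) were lower, with -1.02, -0.88 and -1.26. The order among the acrosomal genes was seen after the values were known and carries no test, and the longest annotated transcript need not be the one that spermatids use.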
